A study of Homo sapiens with 4 samples.

Results

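The tetratricopeptide repeat (TTC) family was described in HCT116, a human line established from a colon carcinoma, after the level of its member TTC22 had been raised or lowered. Members were all genes whose name in the deposited tables is TTC followed by a number and at most 1 letter, which gave 41 of 47251 listed genes, none of them listed under more than 1 row. There were 4 RNA sequencing libraries of polyadenylated RNA, 1 in each of 4 groups, collected 48 hours after transfection. In the plasmid experiment the cells received 2 µg of a TTC22V1 expression plasmid (pCMV-entry-TTC22) or 2 µg of the control vector. In the siRNA experiment they received a pool of 3 siRNAs against TTC22 (SiTTC22-123) at 100 nM in all or scramble siRNA (NC) at 100 nM. Both experiments were transient transfections of HCT116 cells with no other allele or agent named in the labels. Each group was sequenced once, so differences carry neither a replicate error nor a p-value and describe these libraries alone. Levels are given in FPKM, fragments scaled to gene length and to library size, a unit inferred from the values because the tables name none.

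The tetratricopeptide repeat is a short helical motif that occurs in tandem arrays, and the arrays form a groove that binds peptides of partner proteins. The TTC name records this motif and not a shared function. Members serve in the transport machinery of cilia, as cofactors of the HSP70 and HSP90 chaperones, in RNA decay, at the plasma membrane and in mitochondria. TTC22 has been studied in colon cancer cells in connection with metastasis.

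The cells carried epithelial markers in all 4 libraries. EPCAM lay between 101 and 132 FPKM, KRT8 between 291 and 357 FPKM and CDH1, the gene of E-cadherin, between 8.68 and 17.6 FPKM. CLDN4, of the same list, was low, at 1.84 FPKM with vector, 0.538 FPKM with the plasmid, 0.782 FPKM with scramble and 0.528 FPKM with the siRNAs. The intestinal markers CDH17, VIL1 and CEACAM5 did not exceed 0.0379 FPKM, while CDX2, an intestinal transcription factor, was at 4.29 FPKM with vector, 1.63 FPKM with the plasmid, 2.80 FPKM with scramble and 1.28 FPKM with the siRNAs. None of 6 markers of multiciliated cells reached 1 FPKM, and their summed level ran from 0.604 to 1.58 FPKM. The summed FPKM of all genes was between 181102 and 205734 per library. The number of reads is unknown, and the lowest values of the tables placed the depths of the other libraries between 0.953 and 1.06 times that of the vector library.

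TTC22 (ENSG00000006555, minus strand of chromosome 1, bases 54779712 to 54801323 in hg38, up to 7 exons) was checked first. It stood at 4.46 FPKM with vector, 24215 FPKM with the TTC22V1 plasmid, 10.7 FPKM with scramble siRNA and 6.54 FPKM with the TTC22 siRNAs. The plasmid library therefore stood far above the others, and the siRNA library lay below its own control but above the vector library. By level TTC22 ranked 5955 among all genes in the vector library, 2562 with scramble siRNA, 3911 with the TTC22 siRNAs and 1 with the plasmid. The log2 fold, taken of FPKM + 1, was 12.11 for plasmid over vector. For the siRNAs over scramble it was −0.63, with 38.7% less TTC22 than in the control. The tables give 1 value per gene, so RNA from the plasmid and from the chromosomal gene, and the transcripts of TTC22, cannot be told apart.

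The genes closest to TTC22 on its chromosome were near 0 in all 4 libraries, so their values could not show whether they followed its level. TTC4, further away, did not rise with the plasmid. RP11-67L3.2, a noncoding RNA gene that lies within TTC22 on the opposite strand, was at 0.0404 FPKM with vector and listed at 0 in the other 3 libraries. PARS2, which encodes the mitochondrial prolyl-tRNA synthetase and lies 15189 bases away on the same strand, was at 0.00052 FPKM with vector and listed at 0 in the other 3 libraries. LEXM, 4740 bases away, was at 0.0239 FPKM with vector, 0.0624 FPKM with the plasmid, 0 with scramble and 0.0392 FPKM with the siRNAs. The nearest family member is TTC4, 37055 bases away and transcribed in the opposite direction, at 6.02 FPKM with vector, 5.56 FPKM with the plasmid, 4.4 FPKM with scramble and 4.56 FPKM with the siRNAs. Reads of TTC4 may be shared with the readthrough gene MROH7-TTC4, which was listed at 0 in all 4 libraries.

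Promoters of 3 members are shown first because they bear on which members these cells express: TTC1, the member with the highest median level, TTC22, and TTC28, which was close to 0 although its promoter holds the most CpG of the 37 family promoters matched. Each is the 250 bases before the start of the gene in RefSeq (GRCh38.p14), read 5′ to 3′ on the strand of the gene, with CpG dinucleotides in capitals. They lie at chr5:160008889-160009138 on the plus strand for TTC1, chr1:54801324-54801573 on the minus strand for TTC22 and chr22:28679841-28680090 on the minus strand for TTC28. The stretches hold 15, 11 and 41 CpG.
TTC1: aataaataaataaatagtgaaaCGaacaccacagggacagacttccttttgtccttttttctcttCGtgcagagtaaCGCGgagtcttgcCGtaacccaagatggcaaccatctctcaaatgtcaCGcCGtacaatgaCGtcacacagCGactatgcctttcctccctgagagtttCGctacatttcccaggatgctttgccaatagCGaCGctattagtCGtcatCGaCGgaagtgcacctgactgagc
TTC22: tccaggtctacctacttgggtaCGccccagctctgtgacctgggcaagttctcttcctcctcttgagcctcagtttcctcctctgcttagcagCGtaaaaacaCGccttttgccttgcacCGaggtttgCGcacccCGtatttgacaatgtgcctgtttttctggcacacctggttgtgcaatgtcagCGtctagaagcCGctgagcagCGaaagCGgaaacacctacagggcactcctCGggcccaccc
TTC28: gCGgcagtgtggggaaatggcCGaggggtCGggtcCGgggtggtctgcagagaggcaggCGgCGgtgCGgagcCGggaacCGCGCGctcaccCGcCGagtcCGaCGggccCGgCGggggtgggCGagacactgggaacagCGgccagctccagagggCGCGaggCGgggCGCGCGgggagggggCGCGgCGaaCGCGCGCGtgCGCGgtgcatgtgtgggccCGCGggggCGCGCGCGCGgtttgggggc

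The 41 members spanned a wide range of levels. In all 4 libraries 15 members were at or above 1 FPKM, 10 were so in some libraries and not in others, 7 lay below 1 FPKM throughout but reached 0.1 FPKM somewhere, and 9 stayed below 0.1 FPKM. TTC1, an adaptor that binds chaperones, held the most RNA per length of all members other than overexpressed TTC22, at 20.5 FPKM with vector, 20.5 FPKM with the plasmid, 21.7 FPKM with scramble and 20.01 FPKM with the siRNAs. It lay above 92.9% of the genes detected in the vector library. Without TTC22 the family summed to 103 FPKM with vector, 94.6 FPKM with the plasmid, 102 FPKM with scramble and 104 FPKM with the siRNAs. These sums are between 0.0506 and 0.0575% of all FPKM outside TTC22.

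**Figure D1:**
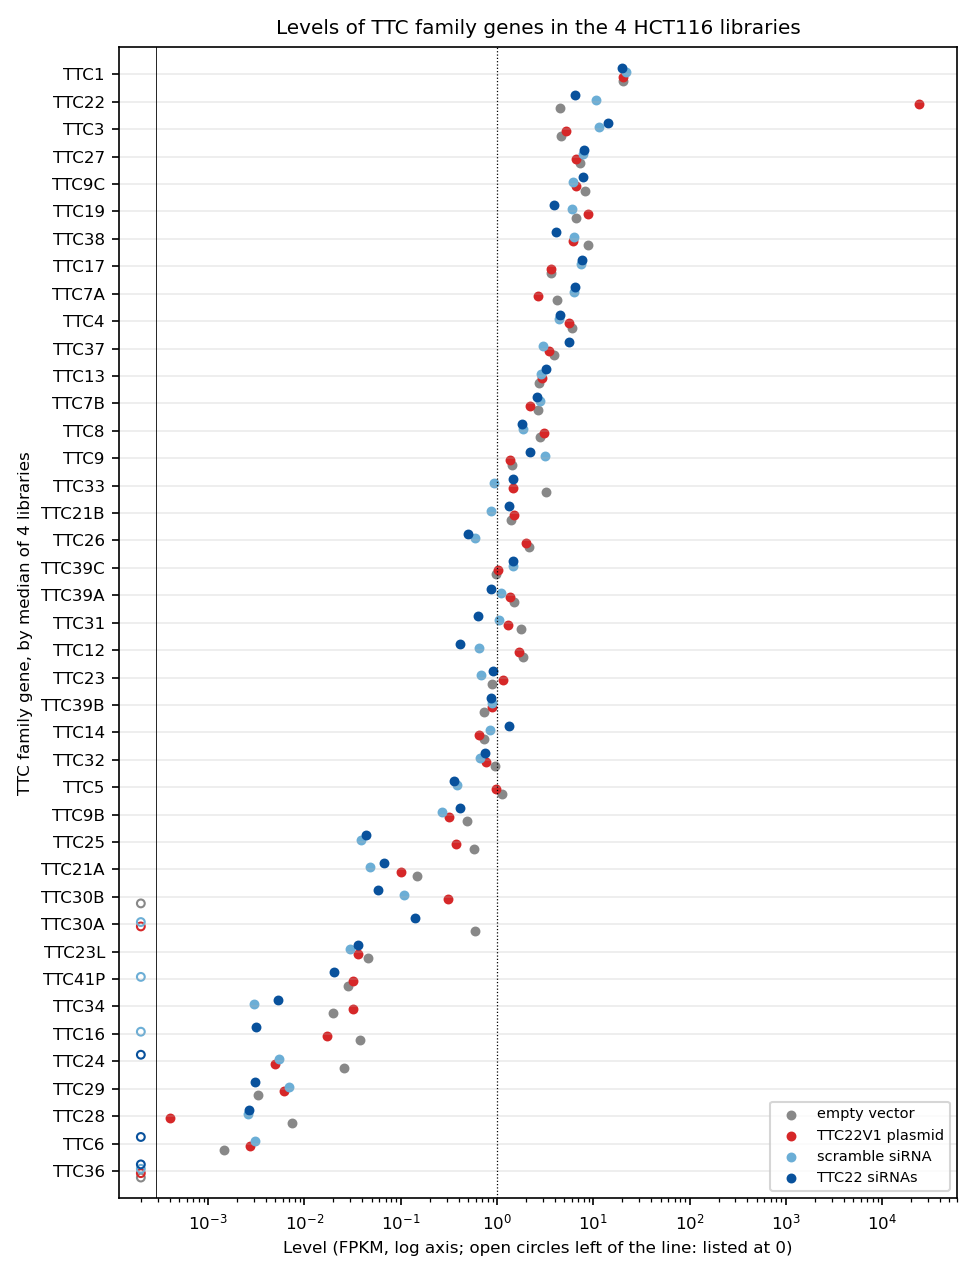
Level of each of the 41 TTC genes (FPKM, log axis) in the 4 libraries, with 1 point per library and open circles for genes listed at 0. TTC22 stood at 24215 FPKM with its plasmid, while TTC1 lay between 20.01 and 21.7 FPKM in all 4 libraries and 9 members stayed below 0.1 FPKM throughout.

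The order of the levels below TTC1 depended on the library. In the vector library TTC38, TTC9C, TTC27, TTC19 and TTC4 followed, at 8.75, 8.17, 7.34, 6.57 and 6.02 FPKM. In the scramble library TTC3 (11.4 FPKM) and TTC22 (10.7 FPKM) came next, then TTC27 (7.90 FPKM) and TTC17 (7.41 FPKM). With no replicates, neighbours in either order cannot be separated from the spread between cultures. TTC38 was at 8.75, 6.09, 6.34 and 4.14 FPKM with vector, plasmid, scramble and siRNAs. TTC27 stayed between 6.57 and 8.06 FPKM, with 7.34, 6.57, 7.90 and 8.06 FPKM in the same order. TTC13 was as even, at 2.72, 2.96, 2.86 and 3.26 FPKM. TTC31 was highest with vector and lowest with the siRNAs, at 1.78, 1.31, 1.06 and 0.643 FPKM. TTC23 lay at 0.881, 1.17, 0.688 and 0.917 FPKM, and TTC32 reached at most 0.945 FPKM.

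Among the 9 members that stayed below 0.1 FPKM were TTC29 and TTC6, assigned to the cilium group, with highest values of 0.00688 and 0.00309 FPKM. TTC28, a protein of cell division, was at 0.00743 FPKM with vector, 0.000398 FPKM with the plasmid, 0.00260 FPKM with scramble and 0.00264 FPKM with the siRNAs. TTC23L, TTC16, TTC34, TTC24 and the pseudogene TTC41P reached at most 0.0453, 0.0375, 0.0321, 0.0255 and 0.0316 FPKM. TTC36, which binds HSP70, was listed at 0 in all 4 libraries. Low values do not separate members that are not transcribed from those below the depth of the libraries.

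Low family genes often had a promoter rich in CpG, the sequence class typical of widely transcribed genes. Here genes were grouped by their median over the 4 libraries. RefSeq promoter windows of 300 bases, 250 before and 50 after the start, were matched for 37 of the 41 members, 4 of them through an older symbol. TTC16, TTC25, TTC36 and TTC41P had no entry. The median CpG count was 24 for the 22 members with a median of at least 1 FPKM, 21.5 for the 6 between 0.1 and 1 FPKM and 25 for the 9 with a median below 0.1 FPKM. These 9 are TTC6, TTC21A, TTC23L, TTC24, TTC28, TTC29, TTC30A, TTC30B and TTC34, and are not the same set as the 9 that stayed below 0.1 FPKM in every library. Over all protein-coding genes of the tables the corresponding medians were 27, 22 and 7 CpG, for 7548, 2118 and 4741 genes. At least 20 CpG, a limit chosen after the values were seen, were present in 7 of these 9 members and in 26.9% of all protein-coding genes with such a median. TTC28 held 52 CpG in its window, more than 99.0% of all protein-coding promoters, and only 26 of the 4741 genes below 0.1 FPKM (0.548%) held as many. TTC1 held 17 and TTC22 17, each more than 37.9% of promoters. The median of TTC22 includes the plasmid library, whose RNA does not describe the chromosomal promoter. TTC22 was at 4.46, 10.7 and 6.54 FPKM with vector, scramble and siRNAs. The values of TTC30A and TTC30B are uncertain, since the genes are nearly identical and each was listed at 0 in some libraries.

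**Figure D2:**
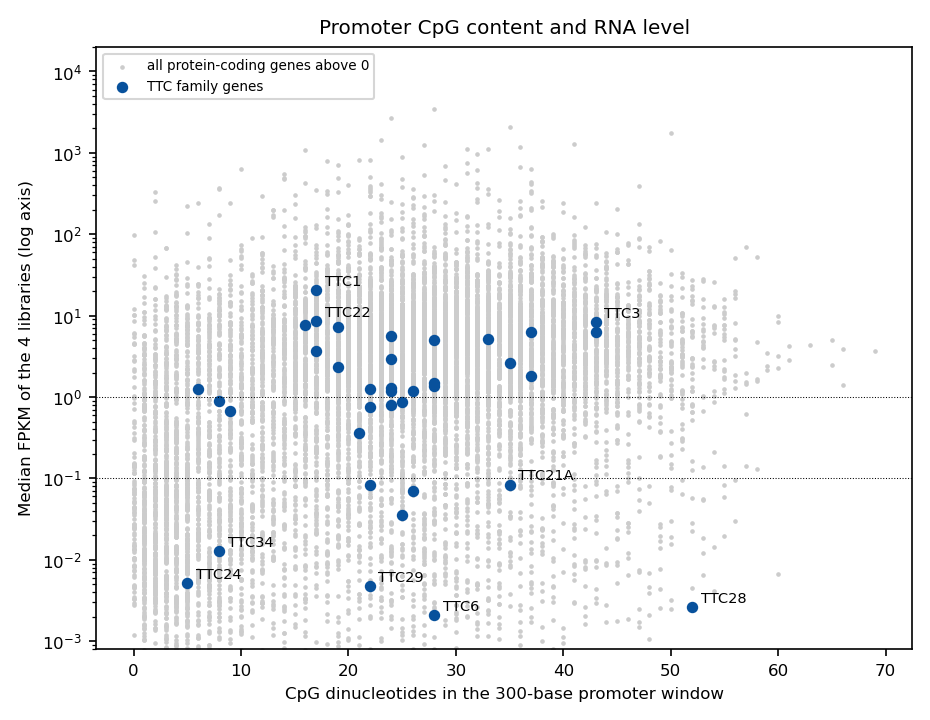
CpG dinucleotides in the 300-base promoter window against the median level of the 4 libraries (FPKM, log axis), with dotted lines at 1 and 0.1 FPKM. The 37 TTC genes are in blue and protein-coding genes with a median above 0 in grey. Genes with a median of 0 are not drawn. TTC28, with 52 CpG, lies near the bottom of the plot, while TTC1 and TTC22, with 17 CpG each, lie near the top of the family. The median of TTC22 includes the plasmid library.

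Short motifs were searched in the same windows on both strands. GTTGCC, a half-site of the X-box found upstream of cilium genes, was present in 6 of 12 promoters of the cilium group and in 3 of 25 of the other members. It occurred in 12.3% of all protein-coding promoters. The 6 were TTC8, TTC21A, TTC23, TTC23L, TTC30A and TTC30B, the last a nearly identical pair. GGGCGG, the SP1 box, was found in 19 of 37 members (51.4%) against 59.5% of all promoters, CCGGAAG, an ETS core, in 7 (18.9%) against 14.3%, and TATAAA in TTC5 alone (2.70%) against 9.36%. GGGCGG and CCGGAAG each contain a CpG, and a match describes the letters of the window.

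TTC30A and TTC30B, both single-exon genes on chromosome 2, encode interchangeable subunits of the intraflagellar transport complex IFT-B. They are shown side by side because their values alternated between libraries. TTC30A was at 0.595 FPKM with vector, listed at 0 with the plasmid and with scramble, and at 0.140 FPKM with the siRNAs. TTC30B was listed at 0 with vector and stood at 0.312 FPKM with the plasmid, 0.109 FPKM with scramble and 0.0581 FPKM with the siRNAs. In the first 3 of these libraries exactly 1 of the pair was listed at 0. The first 150 coding bases of each gene (GENCODE 44, hg38, minus strand, chr2:177618552-177618701 and chr2:177552614-177552763) differ at the 10 bases in capitals.
TTC30A: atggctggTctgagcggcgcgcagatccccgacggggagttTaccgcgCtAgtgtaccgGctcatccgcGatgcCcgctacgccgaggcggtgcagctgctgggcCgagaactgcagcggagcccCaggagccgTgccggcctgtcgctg
TTC30B: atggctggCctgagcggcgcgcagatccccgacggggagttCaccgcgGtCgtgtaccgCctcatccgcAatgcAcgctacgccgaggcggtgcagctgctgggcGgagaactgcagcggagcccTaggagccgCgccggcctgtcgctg
Over the whole coding sequence of 1995 bases the genes were 96.0% identical, with 1 identical run of 272 bases, and 17.4% of all stretches of 100 bases of TTC30A occurred unchanged in TTC30B. Reads that lie wholly within such stretches cannot be assigned to 1 gene of the pair. Both genes have a single exon, and an exact 0 in such tables can be a failed estimate, which a sum would carry over. Why the values alternated was not tested. The sum of the pair is given beside the single values. It was 0.595 FPKM with vector, 0.312 FPKM with the plasmid, 0.109 FPKM with scramble and 0.198 FPKM with the siRNAs. No other lettered pair came near this identity: TTC9 and TTC9B (434 of 736 aligned columns identical), TTC7A and TTC7B (58.5%) and TTC21A and TTC21B (57.1%) were next, and none shared a stretch of 100 bases.

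Lettered members also differed in level. TTC7A and TTC7B, scaffolds that hold the lipid kinase PI4KA at the plasma membrane, were both expressed, TTC7A at 4.17, 2.68, 6.28 and 6.39 FPKM and TTC7B at 2.64, 2.19, 2.78 and 2.58 FPKM with vector, plasmid, scramble and siRNAs. TTC9C, at 8.17, 6.59, 6.21 and 7.82 FPKM in that order, stood above TTC9 (1.42, 1.37, 3.19 and 2.19 FPKM) and TTC9B (0.487, 0.320, 0.266 and 0.410 FPKM) in every library. TTC21B, a subunit of the IFT-A complex, lay at 1.40, 1.51, 0.870 and 1.33 FPKM, and TTC21A did not exceed 0.149 FPKM. TTC39A (1.51, 1.37, 1.11 and 0.868 FPKM), TTC39B (0.733, 0.878, 0.888 and 0.864 FPKM) and TTC39C (0.983, 1.02, 1.47 and 1.48 FPKM) lay close together, and their order changed between libraries. Reads of 22 members may be shared with an overlapping gene, as their exons overlap those of another listed gene and no strand setting is given. TTC19, for example, shares 340 bases of exon with NCOR1 on the opposite strand.

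The plasmid comparison asked whether other members moved when TTC22V1 was overexpressed. A gene counted as measured when its mean over the pair was at least 1 FPKM. It counted as higher or lower when its log2 fold of FPKM + 1 was at least 1 in size. That is 2-fold on FPKM + 1 and more than 2-fold in FPKM itself. TTC33, at 0.458 times its vector level with the plasmid, therefore did not pass. The added 1 FPKM weighs more on low genes, and the shares of all genes are not matched for level. Of 24 measured members, 1 was higher, TTC22 itself, and 0 were lower. Over all 10191 measured genes 6.18% passed this rule, 2.08% higher and 4.1% lower, and 5.49% did so after each fold was centred on the median of measured genes. The 23 other members had log2 folds between −0.77 and 0.36. Their median was −0.09, beside −0.21 for all measured genes, so that it lay 0.12 above all genes when folds are taken relative to that median. TTC22 held 12.8% of the summed FPKM of the plasmid library. FPKM is scaled to the library and to gene length, so this is not a share of reads. Whether it bears on the median of −0.21 was not tested.

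The lowest fold was that of TTC33, at 1.48 FPKM with the plasmid and 3.22 FPKM with vector, for a log2 fold of −0.77 (−0.56 after centring). It stood at 0.940 FPKM with scramble and 1.47 FPKM with the siRNAs, so the vector library was the high one of the 4. TTC7A followed, with a log2 fold of −0.49, and TTC38, at 6.09 against 8.75 FPKM, with −0.46. The highest fold after TTC22 was that of TTC19, which assists the assembly of respiratory complex III, at 8.73 against 6.57 FPKM, a log2 fold of 0.36 that lay above those of 93.8% of measured genes. TTC23, a protein of the cilium base, was at 1.17 against 0.881 FPKM (0.21). TTC1, TTC17 and TTC39C had log2 folds of 0.00, 0.02 and 0.03.

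The siRNA comparison asked the same after TTC22 had been lowered. Of 19 measured members 0 were higher and 0 lower, where 4.75% of all 9744 measured genes passed the rule, 2.57% higher and 2.19% lower, and 4.76% after centring. Without TTC22 the 18 members had log2 folds between −0.53 and 0.72 and a median of 0.03, beside −0.02 for all measured genes. TTC22 had the lowest fold of the family, −0.63, and 4.87% of measured genes lay below it. TTC37, the scaffold of the SKI complex that feeds RNA into the exosome for decay, had the highest, 5.62 FPKM with the siRNAs against 3.03 FPKM with scramble, a log2 fold of 0.72 above those of 95.7% of measured genes. It was at 3.89 FPKM with vector and 3.47 FPKM with the plasmid, so the siRNA library was the highest of the 4.

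TTC14, which carries an RNA-binding domain, stood at 1.34 FPKM with the siRNAs, 0.844 FPKM with scramble, 0.731 FPKM with vector and 0.648 FPKM with the plasmid. TTC3, a ubiquitin ligase that acts on the kinase AKT, was at 14.4 FPKM against 11.4 FPKM with scramble, a log2 fold of 0.32. At the other end TTC19 was at 3.91 FPKM against 6.08 FPKM with scramble (−0.53), TTC38 at 4.14 against 6.34 FPKM (−0.52) and TTC9 at 2.19 against 3.19 FPKM (−0.39). TTC19 thus had its highest level with the TTC22V1 plasmid and its lowest with the TTC22 siRNAs, with both controls between. The share of all genes with this order was not counted, and reads of TTC19 may be shared with NCOR1. TTC38 was lower in the treated library of both experiments. None of these passed the rule of size.

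**Figure D3:**
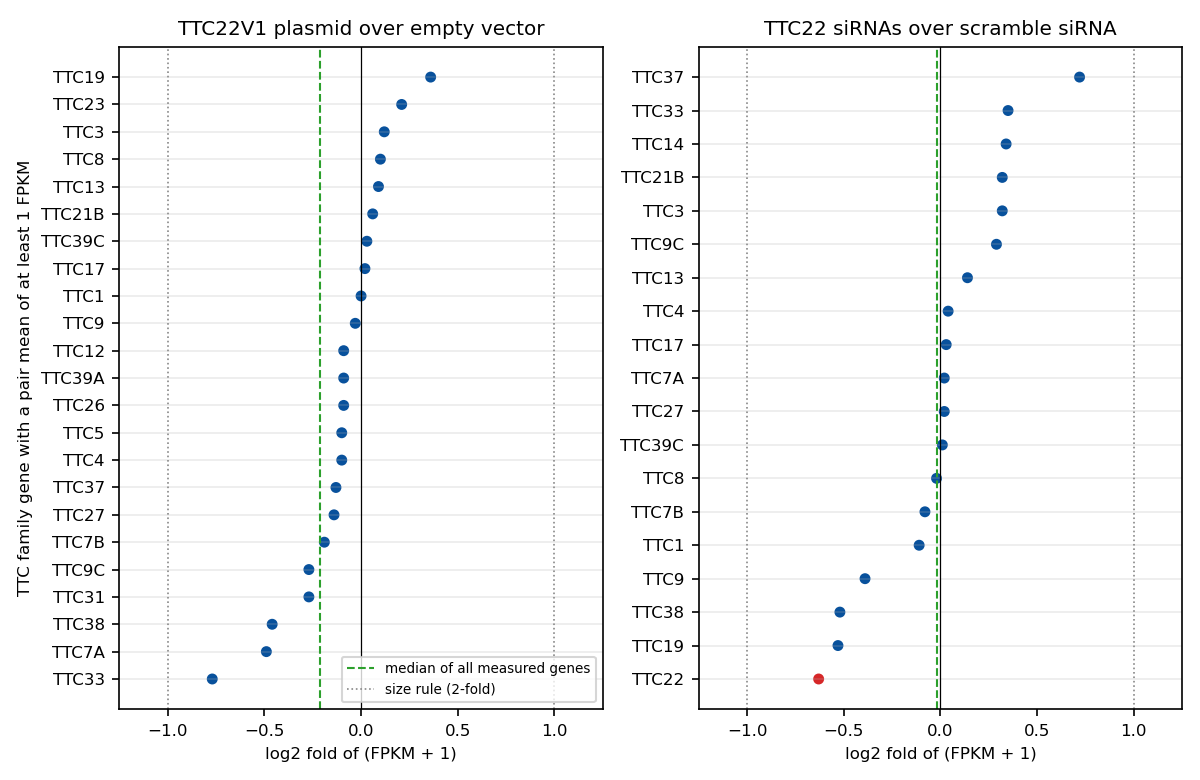
log2 fold of FPKM + 1 for the measured TTC genes, with TTC22V1 plasmid over vector on the left and TTC22 siRNAs over scramble on the right, 1 library per group, with dotted lines at the 2-fold rule and a dashed line at the median of all measured genes. TTC22 in the plasmid comparison (12.11) is left out for scale, and in the siRNA comparison it is the lowest point (−0.63, red).

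More members passed the rule between the controls of the experiments than within either experiment, and so did more of all measured genes. The share of members between the controls, 13.6%, or 9.52% without TTC22, lay below the 19.1% of all measured genes. The experiments differ in transfected material and in culture, which cannot be told apart here. Between the controls, scramble over vector, 22 members were measured: 2 were higher, TTC3 and TTC22, and 1 was lower, TTC33, while 19.1% of all 10214 measured genes passed the rule, 4.99% higher and 14.1% lower. After centring 4 members were higher (18.2%), with TTC17 and TTC9 added, and 0 were lower, where 17.1% of all genes passed. The median of all measured genes was −0.25, and the 21 members without TTC22 had the same median of −0.25. TTC3 was at 11.4 FPKM with scramble and 4.66 FPKM with vector, a log2 fold of 1.13, and TTC22 had a fold of 1.09. TTC33 had a log2 fold of −1.12, and its high vector value enters the plasmid comparison as well. TTC26 lay just inside the limit, at −0.99.

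The treated libraries provide a second pair that shares no library with the controls, a comparison added after the data had been seen. Among the 21 members with a median of at least 1 FPKM, TTC22 left out, both siRNA libraries lay above both plasmid libraries for 6 (28.6%) and below them for 9 (42.9%). Over all genes of that level the shares were 24.6 and 42.6%. A gap of at least 1.5 times between the experiments was found for 4 members upwards (19.0%, against 8.35% of all genes) and 2 downwards (9.52%, against 17.7%).

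The 4 members higher in the siRNA experiment by at least 1.5 times were TTC3, TTC17, TTC9 and TTC7A. TTC17, which takes part in actin organisation and cilium formation, was at 3.61 and 3.68 FPKM with vector and plasmid and at 7.41 and 7.57 FPKM with scramble and siRNAs. Its values were thus nearly equal within each experiment and 2.01 times apart between them. TTC3 was at 4.66 and 5.17 FPKM in the plasmid experiment and at 11.4 and 14.4 FPKM in the siRNA experiment, at least 2.19 times apart.

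The 2 members lower in the siRNA experiment by at least 1.5 times were both assigned to the cilium group. Their share of 9.52% lay below the 17.7% of all genes. TTC17, of the same group, was among the members higher in the siRNA experiment. TTC21B, also of that group, lay lower by a gap of only 1.06 times. TTC26, a subunit of IFT-B, was at 2.17 and 1.98 FPKM with vector and plasmid and at 0.591 and 0.494 FPKM with scramble and siRNAs, at least 3.36 times apart. TTC12, needed for the assembly of dynein arms, was at 1.86 and 1.68 FPKM and at 0.653 and 0.415 FPKM, at least 2.58 times apart. Below the level limit of this count, TTC25, which docks outer dynein arms, was at 0.578 and 0.379 FPKM in the plasmid experiment and at 0.0384 and 0.0439 FPKM in the siRNA experiment. TTC5, which triggers decay of tubulin mRNA when tubulin is in excess, was at 1.13 and 0.983 FPKM and at 0.381 and 0.358 FPKM. TTC8, the BBSome subunit BBS8, was at 2.78 and 3.05 FPKM and at 1.88 and 1.84 FPKM. In bulk RNA fewer cells of a type and less RNA per cell cannot be told apart. The 6 multiciliated cell markers had sums of 1.58 and 1.15 FPKM in the plasmid experiment and 0.887 and 0.604 FPKM in the siRNA experiment. The list was split. FOXJ1, RSPH1 and DNAI1 were lower in both libraries of the siRNA experiment, while DNAH5, TPPP3 and CCDC39 were higher. RSPH1, for example, went from 0.617 and 0.365 FPKM to 0.211 and 0.0649 FPKM, and TPPP3 from 0.275 and 0.294 FPKM to 0.328 and 0.309 FPKM. Of the 5 immune markers, PTPRC and CD3E were at or near 0, and CD68 went from 6.34 and 5.76 FPKM to 42.6 and 37.2 FPKM. The part of these markers in the results was not tested.

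**Figure D4:**
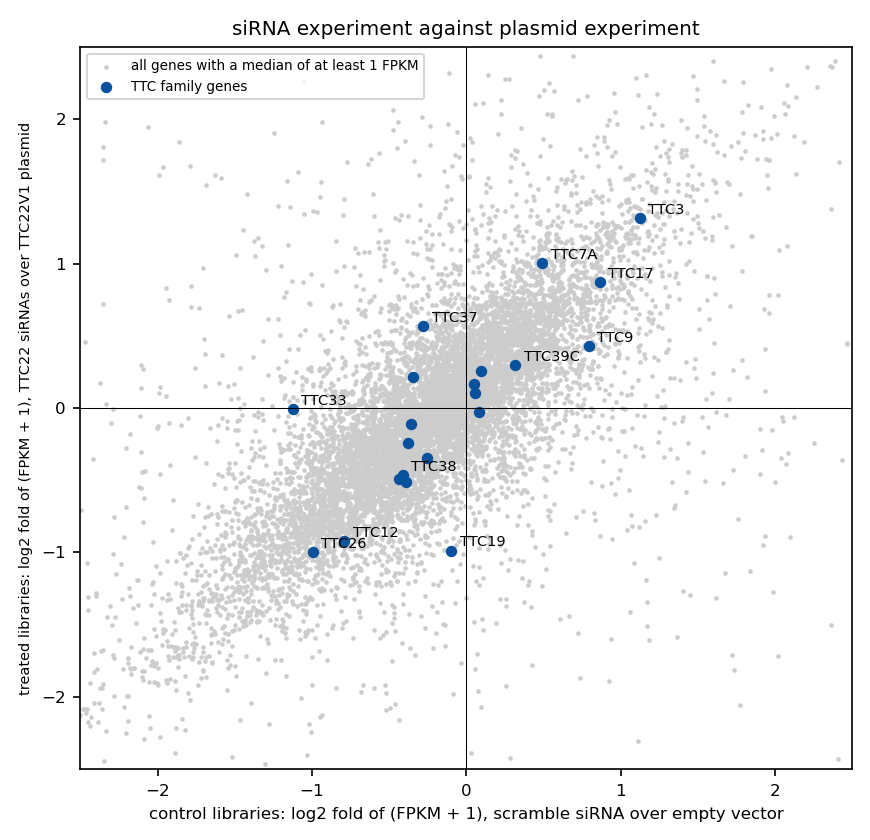
log2 fold of FPKM + 1 of scramble siRNA over vector (x axis) against TTC22 siRNAs over TTC22V1 plasmid (y axis) for 21 TTC genes in blue and all genes with a median of at least 1 FPKM in grey, 1 library per group and TTC22 left out. TTC3 and TTC17 lie at the upper right, TTC26 and TTC12 at the lower left, and the family lies within the spread of all genes.

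Partner complexes of the members were read from lists of genes whose products bind or work with a TTC protein. In the plasmid comparison 6.18% of all 10191 measured genes passed the rule, and lists this short would hold few such genes at that share. Of the lists, 0 genes passed among 4 measured partners of TTC7A and TTC7B, 9 of the BBSome and 5 of IFT-A. The same held for 14 of IFT-B and 10 of dynein arm assembly. The largest log2 folds of each list were small. PI4KA was at 6.60 against 9.42 FPKM (−0.46) and its partner TMEM150A at 1.24 against 1.69 FPKM (−0.27). BBS4 of the BBSome was at 2.16 against 3.05 FPKM (−0.36) and its regulator LZTFL1 at 2.86 against 2.23 FPKM (0.26). In IFT-A, IFT43 stood at 2.62 against 3.42 FPKM (−0.29) and IFT140 at 4.32 against 5.22 FPKM (−0.23). In IFT-B, IFT57 was at 6.03 against 7.84 FPKM (−0.33) and IFT27 at 0.925 against 1.29 FPKM (−0.25). Of the dynein list DNAAF2 was at 5.38 against 3.57 FPKM (0.48) and RUVBL2 at 67.0 against 89.2 FPKM (−0.41).

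In the exosome and SKI, complex III, tubulin and chaperone lists 13.3, 14.3, 8.33 and 16.7% of measured genes passed, beside 6.18% of all measured genes. Each of these shares rests on 1 or 2 genes. Of 15 exosome and SKI genes 1 was higher and 1 lower, EXOSC6 (2.52 FPKM, listed at 0 with vector) and EXOSC4 (9.09 against 30.3 FPKM). EXOSC6 has 1 exon and was also listed at 0 with the siRNAs, and an exact 0 in such tables can be a failed estimate. SKIV2L, the helicase partner of TTC37, was at 4.12 against 7.18 FPKM. Of 14 complex III genes UQCRFS1, the Rieske protein whose fragments TTC19 helps to clear, was higher (33.6 against 14.99 FPKM). The small subunit gene UQCR10 was lower (3.67 against 31.6 FPKM). Both have 2 exons in the annotation, and UQCR10 stood at 38.4 and 39.4 FPKM in the siRNA experiment. Of 12 measured tubulin and tubulin decay genes TUBB2A was higher (19.9 against 9.28 FPKM) and 0 were lower, with a list median of −0.49 (−0.28 after centring). CNOT11, which acts in tubulin mRNA decay, was at 21.2 against 10.3 FPKM (0.97) and passed as higher only after centring (1.18). The chaperone list holds 12 genes, of HSP70 and HSP90 chaperones and of their cofactors. Of these 2 were higher, the near-identical copies HSPA1A (170 against 42.7 FPKM) and HSPA1B (332 against 89.0 FPKM), and 0 were lower. The median log2 fold of the list was 0.17 (0.38 after centring), and centring added PTGES3 (0.97, or 1.17 centred) as higher.

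In the siRNA comparison 3 genes of all partner lists passed the rule, while 4.75% of all 9744 measured genes did. The 3 genes were EXOSC6 (listed at 0, against 2.33 FPKM), TUBB4B (94.5 against 21.4 FPKM) and IFIT5 (2.09 against 0.0800 FPKM), an interferon-induced protein with tetratricopeptide repeats. Each was the only gene past the rule in its list, for shares of 6.67, 7.69 and 2.22% of the measured genes there. All 12 genes of the chaperone list lay above 0 and none passed the rule, with a list median of 0.24 beside −0.02 for all genes. The share of all measured genes above 0 was not counted. PTGES3, the HSP90 cofactor p23, was at 123 against 75.8 FPKM (0.69) and HSPH1 at 18.2 against 11.7 FPKM (0.60). The 13 tubulin and decay genes had a median of 0.04 and the 13 complex III genes one of 0.06. In the other lists the largest folds were as follows. BBS4 was at 4.35 against 2.67 FPKM (0.54) and BBS7 at 2.80 against 2.13 FPKM (0.28). FAM126B of the PI4KA complex was at 2.76 against 1.74 FPKM (0.46) and EFR3A, its membrane anchor, at 14.4 against 17.2 FPKM (−0.24). IFT74 stood at 2.27 against 1.35 FPKM (0.48) and TRAF3IP1, also of IFT-B, at 0.882 against 1.53 FPKM (−0.43). IFT43 was at 1.83 against 2.21 FPKM (−0.18) and TULP3, an adaptor of IFT-A, at 8.29 against 9.42 FPKM (−0.17). ARMC4, a docking factor of dynein arms, was at 3.04 against 3.93 FPKM (−0.29) and RUVBL1 at 4.08 against 4.96 FPKM (−0.23). UQCC1 was at 4.03 against 3.02 FPKM (0.32) and UQCRH at 106 against 130 FPKM (−0.29).

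Between the controls 19.1% of all measured genes passed the rule, 4.99% higher and 14.1% lower, and 17.1% passed after centring, so the counts of partner genes are read beside these shares. Of 13 measured IFT-B genes 4 were lower with scramble than with vector and 0 higher: IFT88 (0.583 against 2.34 FPKM), IFT80 (0.391 against 1.89 FPKM), IFT74 (1.35 against 4.33 FPKM) and IFT52 (4.48 against 11.7 FPKM). The 13 genes had a median log2 fold of −0.63 (−0.38 after centring), and after centring 0 were lower and 1 was higher, IFT20 (5.23 against 2.67 FPKM, 1.01 centred). In IFT-A, where 0 passed, IFT122 was at 0.824 against 1.99 FPKM (−0.71) and IFT43 at 2.21 against 3.42 FPKM (−0.46). In the BBSome list 0 passed, with MKKS at 3.74 against 6.52 FPKM (−0.66) and BBS1 at 1.11 against 2.21 FPKM (−0.61). The BBSome median of −0.26 lay beside −0.25 for all genes. Among 9 dynein assembly genes RUVBL1 (4.96 against 20.1 FPKM), RUVBL2 (24.6 against 89.2 FPKM) and DNAAF3 (3.14 against 7.64 FPKM) were lower. DNAAF3 did not pass after centring (−0.81). RUVBL1 and RUVBL2 are general ATPases with many roles outside cilia.

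Of 12 tubulin and tubulin decay genes 8 (66.7%) were lower with scramble and 0 higher, with a median of −1.37. After centring the median was −1.12 and 7 were lower, without TUBA4A (−0.81). The 8 were TUBA1A, TUBA1B, TUBA1C, TUBA4A, TUBB, TUBB3, TUBB4B and TUBG1. TUBA1B stood at 119 against 486 FPKM, TUBB at 137 against 449 FPKM and TUBB4B at 21.4 against 338 FPKM. With the TTC22 siRNAs TUBA1B and TUBB were at 141 and 141 FPKM, close to scramble. Of 15 exosome and SKI genes 3 were lower (EXOSC2, EXOSC4 and EXOSC9) and EXOSC6 was higher, together 26.7%. After centring EXOSC2 (−0.78) and EXOSC9 (−0.80) did not pass. PI4KA was lower (3.96 against 9.42 FPKM) but not after centring (−0.82), where FAM126B was higher instead (1.09). Also lower were the complex III genes UQCRQ (27.7 against 73.7 FPKM) and CYC1 (61.7 against 159 FPKM), to which centring added UQCRFS1 as higher (1.03). In the chaperone list HSPA1A, HSPA1B and DNAJB1 were higher with scramble (144, 293 and 77.7 FPKM), and HSP90AB1 was lower (468 against 1185 FPKM).

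Proteins that carry the repeat under other names gave a wider comparison. Of 55 such genes 49 were measured in the plasmid comparison, of which 1 was higher, DNAJC3 (7.61 against 2.62 FPKM), an HSP70 cofactor of the endoplasmic reticulum. IFIT3 (0.932 against 3.38 FPKM) and IFIT5 (0.00914 against 3.29 FPKM) were lower. These 3 genes are 6.12% of the list, beside 6.18% of all measured genes, and IFIT3 did not pass after centring (−0.98). The median of this list was −0.17, beside −0.09 for the TTC family without TTC22 and −0.21 for all genes. In the siRNA comparison the 45 measured genes had a median of 0.00, beside 0.03 for the TTC family without TTC22. Between the controls 3 of 49 were higher and 6 lower, with a median of −0.50. That is 18.4% of the list, beside 19.1% of all measured genes. DNAJC3 (17.6 against 2.62 FPKM), OGT, the enzyme that adds O-linked N-acetylglucosamine (21.7 against 10.1 FPKM), and KLC4, a kinesin light chain (3.24 against 0.762 FPKM), were higher. NASP, a histone chaperone (3.92 against 18.2 FPKM), PPP5C (4.57 against 15.5 FPKM), FKBP5 (0.659 against 2.55 FPKM), DNAJC7 (3.77 against 8.78 FPKM), IFT88 and IFIT5 (0.0800 against 3.29 FPKM) were lower. After centring FKBP5 (−0.84), DNAJC7 (−0.79) and IFT88 (−0.82) did not pass.

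**Figure D5:**
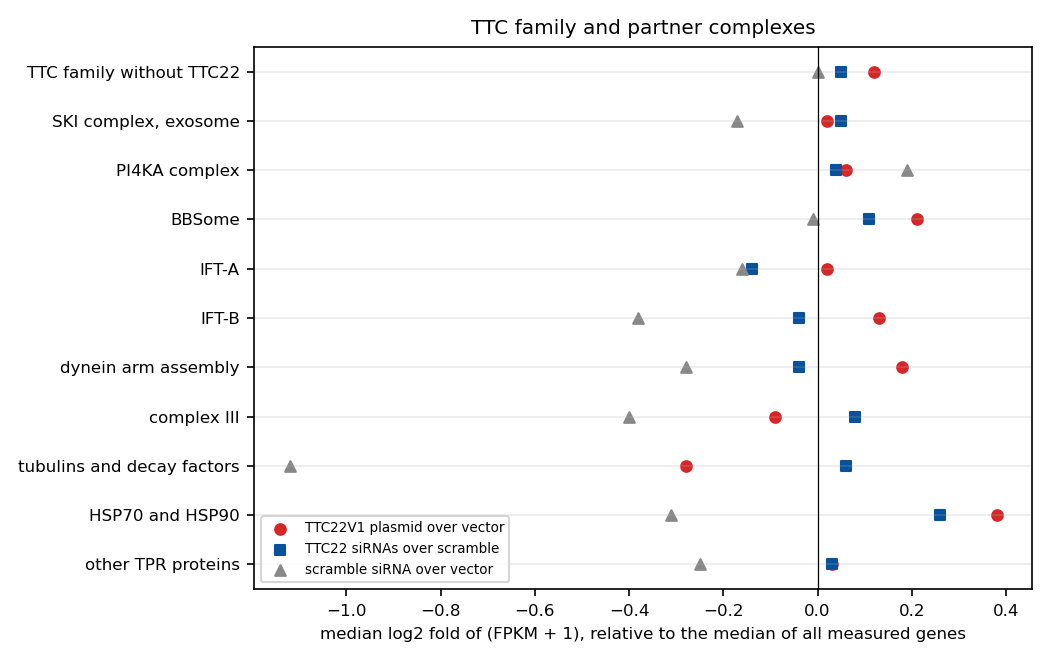
Median log2 fold of FPKM + 1, relative to the median of all measured genes, for the TTC family without TTC22 and for each partner list in 3 comparisons of 1 library each. The family lies between 0.00 and 0.12 in all 3, while the tubulin list lies at −1.12 for scramble over vector.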

How the data were processed

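Polyadenylated RNA was sequenced from both ends of the fragments, per the labels' protocols. STAR, a read aligner, and the build hg38 are named in the submitters' processing notes. Quantification program, annotation and strand setting were not given in the sources used here. Values deposited by the authors, in a table for each experiment, were taken as FPKM from their form, because no header states a unit. Depth is unknown. Relative depths are the modal ratio of 1444 genes below 0.05 FPKM in all libraries, in bins of 0.02 on the log2 scale.

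Members, roles, partner lists and rules were chosen with earlier results of these data known. All members with a pair mean of at least 1 FPKM were to be named, and of each partner list the genes past the size rule or else those with the 2 largest folds. SKIV2L was added after its values were seen. A pseudocount of 1 FPKM, which understates changes of low genes, was added before log2 was taken. The size rule stands in for a test and is not calibrated on replicates. The script that applies it was tested on simulated data with known changes. Exons and coordinates are from GENCODE 44 on hg38, and promoters from RefSeq. Protein sequences were not used here. Rows without a symbol numbered 2844. Alignments used Biopython 1.88 and figures matplotlib 3.10.9, under Python 3.11.15 with pandas 2.3.3.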

Additional observations from a re-analysis of the deposited data

How the results depend on the processing

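No paired analysis was possible because each group has 1 library and the labels give no replicate numbers, and no library could be left out. The alternatives were 9 planned ones and the sum of TTC30A and TTC30B, added after the data had been seen. TTC22 remained the only member higher with its plasmid under all of them. In the plasmid comparison 1 member became lower under each of 3 settings: TTC33 with a pseudocount of 0.1 and with a rule of 1.5-fold, and TTC30A, listed at 0 with the plasmid, with rescaling to a sum of 1000000 without TTC22, which lets more low members pass the level limit, and the family median turned from −0.09 to 0.12 after centring and to 0.08 after rescaling. In the siRNA comparison 1 member (TTC37) became higher and 1 (TTC22) lower with a rule of 1.5-fold, and the median moved from 0.02 to −0.15 after rescaling. Between the controls, where 2 members were higher and 1 lower, there were 4 and 3 with a pseudocount of 0.1, 4 and 0 after centring, 4 and 6 after rescaling, 4 and 3 with a rule of 1.5-fold and 0 and 0 with a rule of 4-fold. With a mean of at least 5 FPKM 0 were lower. The family median there, −0.17 with TTC22, was 0.08 after centring, −0.04 with no filter, 0.09 with a mean of at least 5 FPKM and −0.28 after rescaling. For the scaling alternatives the shift is built into the method, and for the others the cause was not tested. With depth unknown, no limit can be set for the members listed at 0.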
